A study of Gallus gallus with 6 samples.

Results

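HIST1H103 (ENSGALG00000037167) and H1F0 (ENSGALG00000044240) were followed as 2 of the 16828 genes counted in 6 single-cell RNA libraries of wild-type chicken embryos. Both genes were chosen by their measured levels in these libraries: in red cells, in cells with and without a CDK1 UMI, in PDGFRA and FABP7 cells, and by location and stage. Those levels are therefore given here as a description, with no test. The 2 genes were tested only in 3 contrasts whose differences did not enter the choice, although 2 of these set a new class against the FABP7 or PDGFRA cells whose levels had been used. In the contrasts of the choice itself, tests are given for other genes only.

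Linker histones of the H1 family bind the nucleosome where DNA enters and leaves it and help to fold the chromatin fibre. In birds, whose red cells keep their nucleus, a specialised linker histone called H5 accumulates as the red cell matures and is tied to the compaction and silencing of its chromatin. RefSeq lists H5 as a synonym of H1F0. HIST1H103 is one of the H1 genes of the replication-dependent histone cluster, whose members are known to be transcribed chiefly while DNA is copied in S phase. Messenger RNAs of such genes usually end in a stem-loop without a poly(A) tail, whereas the assay used here primes on poly(A), so the UMIs of HIST1H103 count only the transcripts that were captured this way.

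The libraries came from the frontonasal prominence (nasal) at stages HH15, HH18 and HH22 and from dorsal tissue of the brachial trunk (somite) at stages HH12, HH15 and HH20, with 1 library per stage and no treatment. The study compared the stages and both places to follow cells on their way to the skeleton. HH numbers are the Hamburger–Hamilton stages of the chick embryo. Tissue was taken apart with trypsin and run on a droplet kit that counts unique molecular identifiers (UMIs) at the 3′ end of transcripts, so that a UMI count needs no division by gene length. Limb libraries were not analysed here.

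Each library held between 7702531 and 16725073 UMIs, and 16306 of 17268 barcodes were kept as cells. Any pair of libraries shared between 2 and 22 barcodes, 173 over the 15 pairs. Red cells were those with over 20% of their UMIs in hemoglobin genes, and there were 417 of them. The other 15889 cells were divided by single UMIs: 684 PDGFRA cells (PDGFRA, a receptor of mesenchyme, without FABP7) and 6438 FABP7 cells (FABP7, a lipid carrier of neural progenitors, without PDGFRA). Cells with at least 3 UMIs of a neuron, endothelial or surface ectoderm list formed 3 further classes. A further 434 cells held both genes and 5513 neither. All levels below are UMIs of the gene per 1000000 UMIs (CPM), with the cells of a class summed within a library, and their 95% exact Poisson intervals cover counting error only.

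The class names were checked against lists of marker genes. In red cells the erythroid list other than hemoglobin summed to between 2186 and 3885 CPM, against 277 to 386 CPM in FABP7 cells. In endothelial-list cells the erythroid list summed to 873 to 2679 CPM, which overlapped the range of red cells. Its genes RHAG, EPB42, SLC4A1, NFE2 and PPOX had no UMI there, but RHAG had none in red cells either. The erythroid-list gene TAL1 also stands in the endothelial list. On the scale of edgeR's TMM factors, CA2 and LMO2 of the erythroid list averaged 1178 and 510 CPM in endothelial-list cells. The mesenchyme list without PDGFRA, which defines the class, summed to 501 to 2246 CPM in PDGFRA cells and to 153 to 1438 CPM in FABP7 cells, higher in PDGFRA cells in 6 of 6 libraries. In nasal HH22 the mesenchyme factor PRRX1 was 279 CPM in PDGFRA and 254 CPM in FABP7 cells, so that FABP7 cells as chosen here also held mesenchyme transcripts. The neural progenitor list without FABP7 summed to 165 to 268 CPM in FABP7 cells and 39.9 to 134 CPM in PDGFRA cells. In red cells the same 2 lists summed to 5.48 to 49.6 CPM and 0 to 16.9 CPM.

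Red cells also held genes of 2 other lists. The endothelial list summed to 43.2 to 137 CPM in red cells, against at most 33.7 CPM in PDGFRA and 44.8 CPM in FABP7 cells, while 5 of its 10 genes (KDR, TEK, TIE1, FLT4 and ESAM) had no UMI there. The macrophage and thrombocyte list summed to 109 to 175 CPM in red cells and at most 62.6 CPM in PDGFRA and FABP7 cells, and 5 of its 9 genes (LYZ, F13A1, SPI1, PTPRC and ITGA2B) had no UMI in red cells. TUBB1 alone reached 175 CPM, the highest sum of that list in red cells. TAL1 of the endothelial list also stands in the erythroid list, and on the scale of edgeR's TMM factors it averaged 145 CPM in red cells. Whether cells of other kinds added to the red cell values was not tested.

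H1F0 made up nearly the whole linker histone signal of red cells, and HIST1H103 most of that of all other cells. Of 9816 H1F0 UMIs, 91.1% lay in red cells, which were 2.56% of the cells and held 6.60% of all UMIs. HIST1H103 had 13874 UMIs and 3.29% of them lay in red cells.

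The files held 6 linker histone genes, with 24645 UMIs in all. In red cells, H1F0 gave 94.9% of the linker histone UMIs and HIST1H103 4.84%. In the other cells HIST1H103 gave 88.1%, H1F0 5.72%, HIST1H101 3.97% and HIST1H110 1.93%. HIST1H111R had 17 UMIs over all kept cells and H1FX, a linker histone outside the replication-dependent cluster, had 21. These shares are of captured UMIs, and capture may differ between transcripts with and without poly(A) tails.

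In the gene order of the RefSeq annotation (GRCg7b, a later assembly than the GRCg6a used for the counts), HIST1H103 lay in a dense histone cluster on chromosome 1. Of the 31 genes in a window of 15 on each side, itself included, 25 carried histone names. HIST1H110 was separated from it by 4 genes, HIST1H101 by 6 and HIST1H111R by 16. H1F0 stood on the same chromosome, outside the cluster, with 151 genes between them. The clustered H1 genes are close copies of one another, so reads may have been divided among them or lost, and the values of HIST1H103, HIST1H110, HIST1H101 and HIST1H111R are uncertain to that extent.

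**Figure D1:**
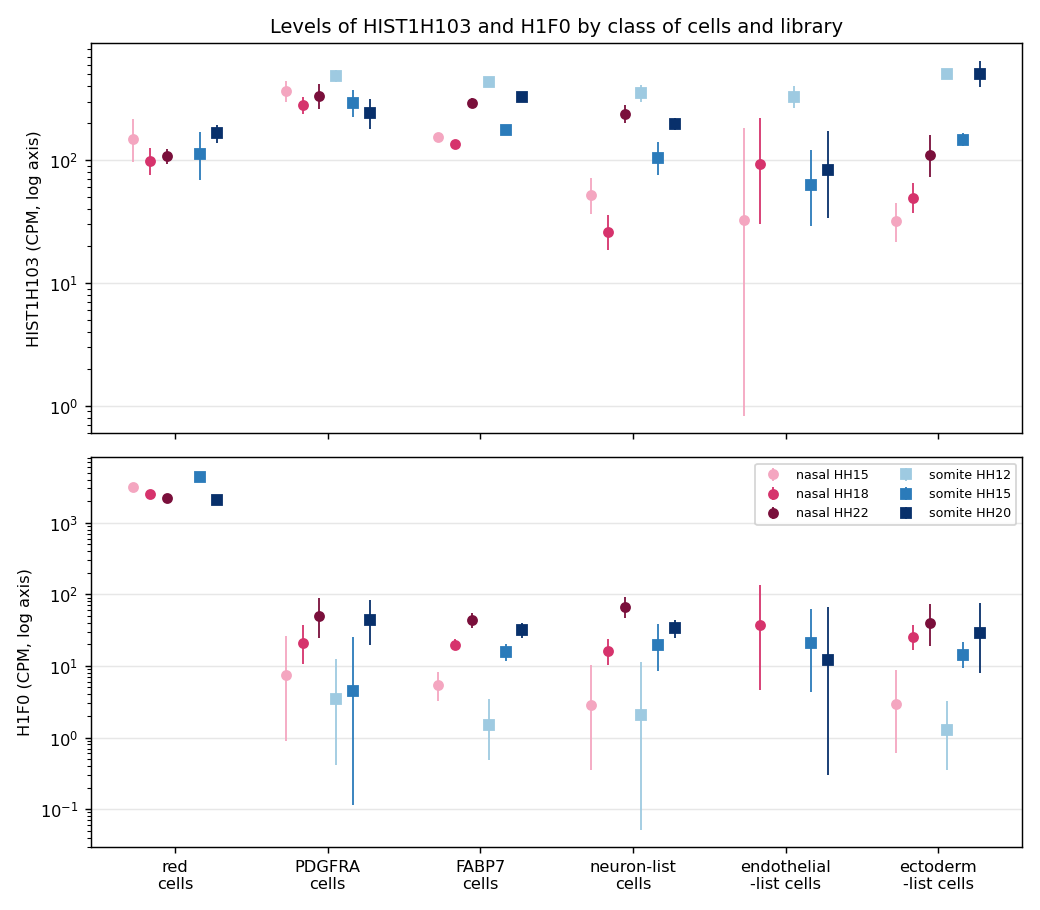
Level of HIST1H103 (top) and H1F0 (bottom) in CPM on log axes, for 6 classes of cells. Each point is 1 library and each bar its 95% Poisson interval; sums without a UMI are left out. H1F0 lies between 2098 and 4312 CPM in red cells and at 66.2 CPM or less in every other class drawn.

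H1F0, the linker histone of the avian red cell, was in UMI terms a gene of red cells in every library that had them. Its level in red cells was 3129 CPM in nasal HH15 (26 cells), 2539 in nasal HH18 (101), 2235 in nasal HH22 (152), 4312 in somite HH15 (35) and 2098 in somite HH20 (102). In the remaining cells it was 4.80, 20.3 and 46.8 CPM in the nasal libraries by stage, and 1.26, 14.9 and 32.8 CPM in the somite libraries at HH12, HH15 and HH20. The red and non-red values did not overlap, and red cells stood between 47.7 and 652 times above the other cells of their own library (median 125-fold, 5 of 5 libraries).

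Red cells varied widely in H1F0 from cell to cell. The lowest, median and highest counts per cell were 3, 15.5 and 71 UMIs in nasal HH15, and the medians of the other 4 libraries were 13, 21, 8 and 11.5 in the order above. The highest counts there were 114, 157, 108 and 173 UMIs. A UMI of H1F0 was present in 410 of 417 red cells, and 282 of them held 10 or more. Of the 15889 other cells, none held 5 or more.

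The difference was also present at equal depth. When each cell was thinned to 1000 UMIs, 81.1% of red cells (95% exact binomial interval 77.0 to 84.7%) and 1.64% of the other cells (1.45 to 1.85%) kept an H1F0 UMI. These intervals pool cells and leave out differences between libraries. By library the shares were 75.5 to 96.2% of red cells and 0.133 to 4.92% of the other cells. Without thinning, the pooled shares were 98.3% and 5.15%, at median depths of 7943 and 2748 UMIs.

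The hemoglobin threshold fell in a nearly empty range. Between 5 and 20% hemoglobin there were 4 cells with 4 H1F0 UMIs in all, and just inside, between 20 and 30%, there were 3 cells with 11. From 30% upward, with the red cells of all libraries pooled, H1F0 outside hemoglobin went from 3757 CPM in 9 cells at 30 to 40% to 7702 in 61 cells above 70%. Relative to hemoglobin it went the other way, from 7.14 to 2.78 UMIs per 1000 hemoglobin UMIs. The cells above 70% were nearly all from nasal HH22, which gave 55 of them, so that the pooled order also follows library and stage. Within nasal HH22, cells at 50 to 60, 60 to 70 and above 70% hemoglobin had 6190, 6684 and 7839 CPM of H1F0 outside hemoglobin. In somite HH20 the values at 50 to 60 and 60 to 70% were 5520 and 5344, in the opposite order. In nasal HH18 they were 5481 at 20 to 50%, 4954 at 50 to 60% and 7364 at 60 to 70%, in neither order.

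**Figure D2:**
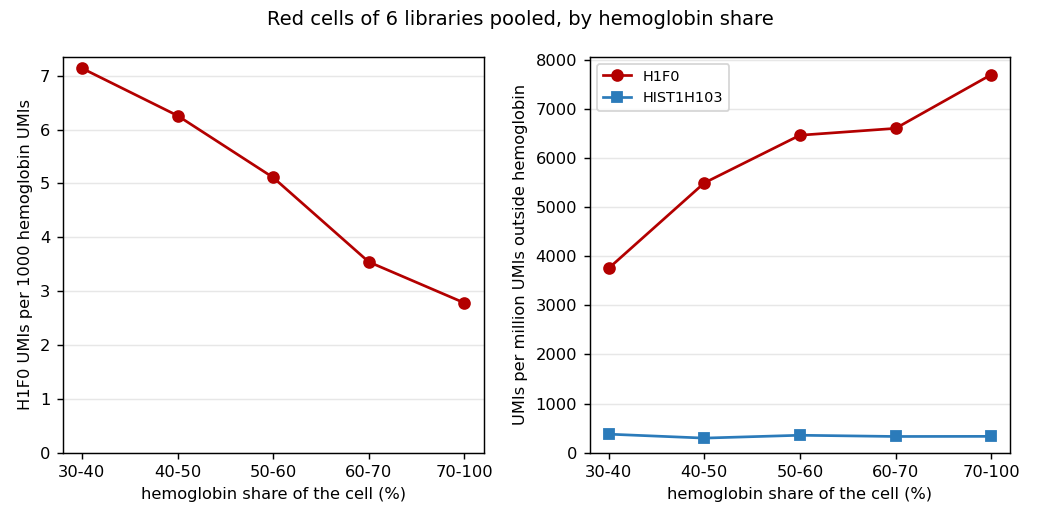
Red cells of the 6 libraries pooled by the share of their UMIs in hemoglobin (x axis, percent). Left, H1F0 UMIs per 1000 hemoglobin UMIs; right, H1F0 and HIST1H103 in CPM of the UMIs outside hemoglobin. H1F0 goes from 7.14 to 2.78 on the left and from 3757 to 7702 on the right.

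By place and stage, H1F0 in red cells was highest in somite HH15 (4019 to 4619 CPM by counting) and next in nasal HH15 (2877 to 3396), and these 2 intervals did not overlap. Nasal HH18 (2418 to 2664) came next, followed by nasal HH22 (2167 to 2304) and somite HH20 (2002 to 2198), the last 2 overlapping. With hemoglobin left out of the total the order became 9833 in somite HH15, 7046 in nasal HH15, 6966 in nasal HH22, 6176 in nasal HH18 and 5364 in somite HH20. Hemoglobin took 55.6 to 67.9% of the UMIs of red cells, so the level over all UMIs and the level outside hemoglobin are different quantities. A further 155 red barcodes lay above 4 times the mean UMI count of their library and were left out of these values. Their order differed, with 4021 CPM in somite HH15, 3686 in nasal HH18, 2500 in nasal HH22, 2375 in nasal HH15 and 2257 in somite HH20. The counting intervals leave out the spread between cells, and in somite HH15 17 of 35 red cells held 90.5% of the H1F0 UMIs. Each stage was 1 library, so stage and library cannot be told apart.

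Within red cells, those with a CDK1 UMI had 1.17 to 1.31 times the H1F0 level of those without in the 4 libraries with at least 10 cells of each kind. CDK1 is the kinase that drives entry into mitosis. Red cells whose S phase UMIs outnumbered their G2M UMIs had 0.586 to 0.912 times the H1F0 level of those with more G2M UMIs, lower in 4 of 4 libraries. These ratios were not tested.

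The few H1F0 UMIs outside red cells went with hemoglobin. Hemoglobin took 0.0874, 0.290 and 1.17% of the UMIs of non-red cells in nasal HH15, HH18 and HH22, and 0.00242, 0.172 and 0.835% in somite HH12, HH15 and HH20. The H1F0 level of these cells had the same order over the 6 libraries. Both are high in late and low in early libraries.

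The number of H1F0 UMIs for each 1000 hemoglobin UMIs was also taken in each class. In nasal HH15, red cells had 5.63 H1F0 UMIs per 1000 hemoglobin UMIs (5.18 to 6.11) and FABP7 cells 5.74 (3.51 to 8.87). In nasal HH22 the values were 3.29 and 3.64, in somite HH15 7.68 and 8.24, and in somite HH20 3.45 and 3.60, all with overlapping intervals. Nasal HH18 differed, with 4.31 (4.11 to 4.52) in red and 6.67 (5.60 to 7.87) in FABP7 cells. The source of the H1F0 and hemoglobin UMIs of non-red cells was not tested.

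Over all non-red cells the ratio was 5.49, 6.98, 3.997, 8.65 and 3.93 in these 5 libraries. Its interval lay above that of red cells in nasal HH18 (6.21 to 7.83) and nasal HH22 (3.48 to 4.57) and overlapped it in the other 3. In somite HH12, where red cells were nearly absent, non-red cells held 14 H1F0 UMIs and the ratio was 52.0 (28.5 to 87.3). The 1 red cell of that library had 14.8 (10.9 to 19.5).

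**Figure D3:**
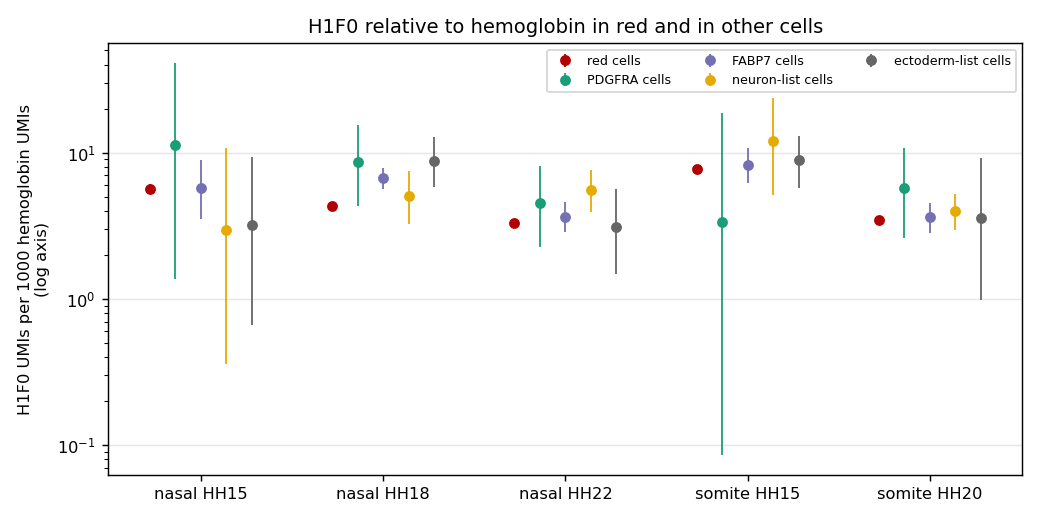
H1F0 UMIs per 1000 hemoglobin UMIs (log axis) in red cells and 4 other classes, in the 5 libraries with at least 10 red cells; bars are 95% Poisson intervals of the H1F0 count. Red cells lie between 3.29 and 7.68, and the FABP7 interval takes in the red value in every library but nasal HH18.

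Other genes of red cells were counted in the same contrast, by edgeR's quasi-likelihood test on summed UMIs with library as a block, adjusted by Benjamini-Hochberg over the 8105 genes that passed the filter on low counts. Of those, 12.1% were called higher in red cells and 29.3% lower at an adjusted p under 0.05, on the scale of edgeR's TMM factors. Scaled by library totals instead, hemoglobin included, the median of all genes moved from a log2 fold change of -0.36 to -1.996, and the calls from 981 higher and 2373 lower to 184 and 7382. In the erythroid list 14 of 16 genes rose and 1 fell (12 and 2 with library totals). The band 3 anion exchanger SLC4A1 (log2 fold change 9.69), the membrane skeleton anchor ANK1 (7.62) and its partner EPB42 (7.42) led those that rose. ALAS2 of the same list went the other way, with 0 to 3.55 CPM in red cells and 21.8 to 26.7 CPM in the other cells of these libraries. Of the endothelial list TAL1 rose (7.13), a factor that also drives red cell formation, and of the thrombocyte and macrophage list TUBB1 (6.25), a tubulin of the marginal band. The level of SLC4A1 was 806 to 1100 CPM in red cells and 0.27 to 10.4 CPM in FABP7 cells.

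The high mobility group list stood lower in red cells. Of 8 high mobility group genes 7 fell, among them HMGA2 (-1.50), HMGN4 (-1.49) and HMGB3 (-1.42), which bind DNA or nucleosomes in competition with linker histones. Of 10 histone chaperone genes 6 fell, led by NASP (-1.14), which carries H1 and H3–H4, CHAF1A (-1.07) of chromatin assembly factor 1 and NAP1L1 (-0.70). Of 8 histone variants 5 fell and 1 rose, with H2AFY2, a macroH2A, at -2.04. Of 36 S phase genes 3 rose and 8 fell, and of 40 G2M genes 3 rose and 11 fell. With library totals no gene of these 5 lists rose, and 8 high mobility group, 10 chaperone, 7 variant, 35 S phase and 39 G2M genes fell. On that scale 7382 of all 8105 genes fell and 184 rose, so these counts lie near the share over all genes. Against the median of -0.36 over all genes, the medians of the high mobility group and chaperone lists were -1.18 and -0.50.

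HIST1H103 in red cells was lower or higher than in other cells depending on the total it was divided by. Over all UMIs it was 148, 98.2 and 108 CPM in the red cells of nasal HH15, HH18 and HH22, and 112 and 165 CPM in those of somite HH15 and HH20. In the other cells of the same libraries it was 201, 153, 277, 191 and 278 CPM, higher in 5 of 5 with red-to-other ratios of 0.390 to 0.735. With hemoglobin left out of the total, red cells had 333, 239, 337, 256 and 423 CPM, and the ratios became 1.20 to 1.65, now above 1 in 5 of 5.

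The same turn appeared with the scaling across all genes. With TMM factors the log2 difference of HIST1H103 was 0.81, and with library totals it was -0.84. Relative to the median gene it was 1.17 and 1.16, and 90.1% and 89.8% of genes lay below it.

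Genes that mark other classes also had UMIs in red cells, whose source was not tested. On the TMM scale FABP7 stood at -2.06, the collagen gene COL1A1 at -3.33 and the neuronal tubulin TUBB3 at -1.64 in red against other cells. FABP7 itself had 38.4 to 103 CPM in red cells. HIST1H103 was found in 168 of 417 red cells, with at most 13 UMIs in a cell. Within red cells S-leaning cells were above G2M-leaning ones in 1 of 4 libraries, with ratios of 0.513 to 1.09.

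Among core histones, the nucleosome's own subunits, 4 of 17 genes had enough counts for the test in red cells. H2A-IX (1.48) and HIST1H2B8 (1.49) rose on the TMM scale, from 24 and 15 UMIs, but stood at -0.18 and -0.15 and did not pass with library totals. HIST1H4C (0.20), HIST1H46 (0.34) and the linker genes HIST1H110 (-0.32) and HIST1H101 (0.40) did not pass on the TMM scale and fell with library totals, to between -1.76 and -1.27. The median of all genes with library totals was -1.996.

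Outside red cells HIST1H103 was the leading linker histone gene of every class, at levels that differed between libraries more than between most classes. Over all non-red cells it was 201, 153 and 277 CPM in nasal HH15, HH18 and HH22, and 458, 191 and 278 CPM in somite HH12, HH15 and HH20. Somite HH12, the youngest library, stood highest, and in both places the middle stage was lowest. At HH15, the only stage sampled in both places, the intervals overlapped, 192 to 211 CPM in nasal and 182 to 201 CPM in somite cells.

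HIST1H103 was spread unevenly over cells. It had a UMI in 31.8% of non-red cells, and the 4.73% of cells with 5 or more UMIs held 43.6% of its UMIs. In somite HH12, 11.7% of cells held 5 or more, with a maximum of 51 UMIs in 1 cell. In the other libraries this share was 1.53 to 7.50% and the maximum 9 to 17.

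In PDGFRA cells HIST1H103 was 364, 281 and 333 CPM in nasal HH15, HH18 and HH22, and 487, 291 and 241 CPM in somite HH12, HH15 and HH20. In FABP7 cells it was 155, 137, 295, 435, 177 and 327 CPM in the same order. FABP7 cells were lower in 5 of 6 libraries and higher in somite HH20, with ratios of 0.426 to 1.36 (mean log2 ratio -0.48 ± 0.63, SD, n = 6). The values of the classes overlapped across libraries.

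Ordered by the mean over libraries, PDGFRA cells had 333 ± 86.8 CPM (SD, n = 6), cells with neither gene 314 ± 79.2, FABP7 cells 254 ± 118, ectoderm-list cells 225 ± 221 and neuron-list cells 162 ± 124. Red cells had 126 ± 28.8 CPM (n = 5) and endothelial-list cells 120 ± 119 CPM (n = 5). These means cover different libraries: red cells lacked somite HH12, and endothelial-list cells lacked nasal HH22 and had 328 CPM in somite HH12. In nasal HH15 and HH18 endothelial-list cells had 32.7 and 93.8 CPM against 148 and 98.2 in red cells. In somite HH15 and HH20 they had 63.3 and 83.7 CPM against 112 and 165. Cells with both genes had 307 ± 158 (n = 6). No neighbours in this order were separated by more than the larger of their SDs, which include differences between libraries. The ectoderm-list cells ranged most, from 31.8, 49.4 and 111 CPM in the nasal libraries by stage to 501, 147 and 508 CPM in the somite libraries.

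H1F0 in PDGFRA cells was 7.35, 21.0 and 49.5 CPM in nasal HH15, HH18 and HH22, and 3.47, 4.48 and 43.4 CPM in somite HH12, HH15 and HH20. In FABP7 cells it was 5.35, 19.9, 43.1, 1.48, 15.6 and 31.2 CPM. PDGFRA cells were the higher in 5 of 6 libraries, on 1 to 11 H1F0 UMIs each. Outside red cells the class means of H1F0 lay between 14.1 and 23.4 CPM and within 1 SD of each other, against 2862 ± 902 CPM in red cells (n = 5).

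The contrast of FABP7 and PDGFRA cells covered 6618 genes, of which edgeR's quasi-likelihood test called 23.7% higher and 23.6% lower in FABP7 cells after Benjamini-Hochberg adjustment. Of 39 G2M genes 18 rose and 3 fell, and of 35 S phase genes 14 rose and 4 fell. CDK1 had a UMI in 49.7 to 65.7% of FABP7 cells and 30.9 to 48.0% of PDGFRA cells. The linker gene HIST1H101 fell in FABP7 cells (log2 fold change -1.14, adjusted p = 0.0013, edgeR), whereas the H4 gene HIST1H4C rose (0.49, adjusted p = 0.023, edgeR). The stem-loop binding protein SLBP, which matures replication-dependent histone mRNA, rose by 1.01, and the high mobility group genes HMGA1 and HMGB2 by 1.80 and 0.92. All 5 hemoglobin genes tested were higher in FABP7 cells. HBBR stood at 0.51 and 0.29 in its separate entries, and HBZ and HBM at 0.48 and 0.44.

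HIST1H103 was lower in cells with a CDK1 UMI. Cells with CDK1 had 146, 104 and 237 CPM in nasal HH15, HH18 and HH22, and 427, 141 and 247 CPM in somite HH12, HH15 and HH20. Cells without it had 303, 234, 324, 519, 268 and 309 CPM. The level with CDK1 was below that without it in 6 of 6 libraries, at 0.444 to 0.822 of it (mean log2 ratio -0.70 ± 0.39, SD, n = 6). The 8331 cells with CDK1 held 31961114 UMIs and the 7558 without it 20472482, so the groups also differed in depth. The part of depth in this gap was not tested.

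The size of this gap depended on the cells compared. With at least 2 CDK1 UMIs required it was -1.13. Within FABP7 cells it was -0.80 and held in 6 of 6 libraries, but within PDGFRA cells it was -0.11 and 3 of 6 libraries went the other way. H1F0 had ratios of 0.692 to 1.36 between cells with and without CDK1, higher with CDK1 in 4 of 6 libraries.

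CDK1 was least frequent where S phase genes dominated. Among non-red cells with at least 5 cell cycle UMIs, CDK1 was found in 58.8 to 68.0% of cells in which under 20% of these UMIs were S phase genes, and in 15.8 to 28.1% where over 80% were. Within G2M-leaning cells, those with CDK1 had 0.350 to 0.683 times the HIST1H103 level of those without, lower in 6 of 6 libraries. Within S-leaning cells the ratio was 0.560 to 1.40, lower in 3 of 6. The part of phase in the CDK1 gap was not tested.

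Across genes the CDK1 contrast was broad, with 29.3% of 8873 genes called higher and 30.1% lower by the same edgeR test. Of 42 G2M genes 36 rose, and of 37 S phase genes 19 rose and 7 fell. The high mobility group gene HMGB2 rose by 1.15 and the variant H2AFZ by 0.69. Of 7 genes of histone mRNA processing 4 rose, with the exonuclease ERI1 at 0.69, CPSF2 at 0.65 and SLBP at 0.50. All 4 cell cycle inhibitor genes tested fell. The other linker genes HIST1H110 (-0.44) and HIST1H101 (-0.57) also fell, while HIST1H4C rose (0.58, adjusted p = 1.39e-06 in edgeR, 6 of 6 libraries).

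The first tested contrast set S-leaning against G2M-leaning cells among non-red cells with CDK1. HIST1H103 rose in S-leaning cells in 6 of 6 libraries, and H1F0 did not pass the test. In S-leaning cells HIST1H103 was 264, 211 and 386 CPM in nasal HH15, HH18 and HH22, and 870, 300 and 564 CPM in somite HH12, HH15 and HH20, from 133 to 579 cells. In G2M-leaning cells it was 89.4, 65.8, 182, 242, 89.0 and 165 CPM, from 449 to 1728 cells.

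Each S-leaning value lay above the G2M-leaning value of its own library, by 2.13 to 3.60 times, although the 2 ranges overlapped across libraries. The log2 fold change was 1.67 (SE 0.06, adjusted p = 1.07e-27, edgeR's quasi-likelihood test with library as a block). With each cell thinned to 1000 UMIs, 25.0% of S-leaning and 9.69% of G2M-leaning cells kept a HIST1H103 UMI, against 47.3% and 21.6% without thinning. Median depths were 3169 and 3216.5 UMIs.

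**Figure D4:**
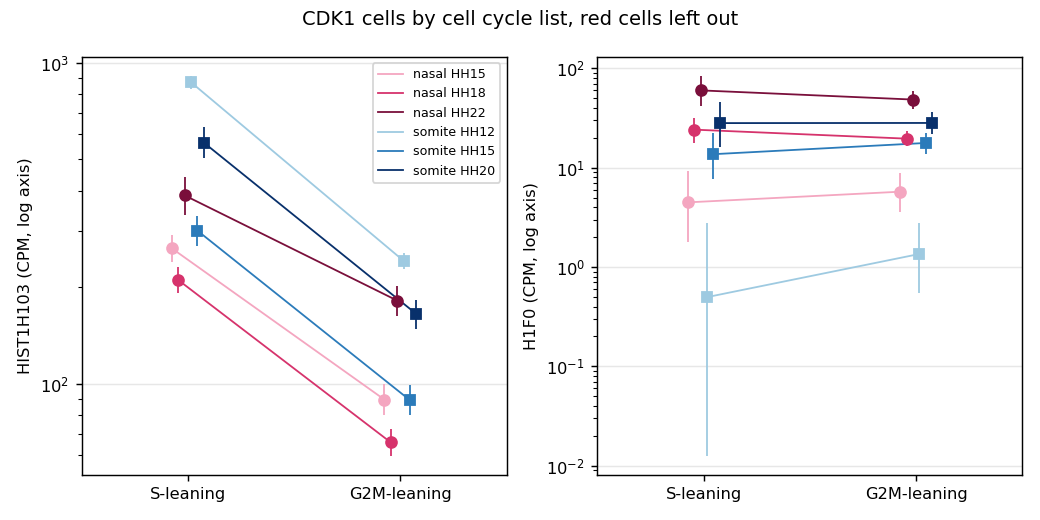
HIST1H103 (left) and H1F0 (right) in CPM on log axes in S-leaning and G2M-leaning CDK1 cells; each line joins both values of 1 library and bars are 95% Poisson intervals. All 6 HIST1H103 lines fall from left to right, from 211 to 870 CPM down to 65.8 to 242 CPM, and the H1F0 lines have no common direction.

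H1F0 in the same cells was 4.47, 24.1 and 59.9 CPM in S-leaning and 5.72, 19.6 and 48.4 CPM in G2M-leaning cells of nasal HH15, HH18 and HH22. In somite HH12, HH15 and HH20 it was 0.497, 13.6 and 28.0 against 1.35, 17.7 and 28.1 CPM. The groups overlapped, and 3 of 6 libraries were higher in S-leaning cells after TMM scaling. The log2 fold change was 0.08 (SE 0.16, adjusted p = 0.81, edgeR).

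The difference of HIST1H103 between S-leaning and G2M-leaning cells held within cell classes. Within FABP7 cells the ratio was 2.44 to 3.25 in 6 of 6 libraries (log2 fold change 1.56). Within PDGFRA cells it was 1.44 to 4.46 in 3 of 3 libraries (log2 fold change 1.64). The S-leaning PDGFRA sums held only 45 cells and 137 HIST1H103 UMIs. In cells without a CDK1 UMI the ratio was 1.31 to 2.48, again in 6 of 6. Among neuron-list cells with CDK1 it was 2.17 to 9.65, in 6 of 6, on S-leaning sums of 11 to 46 cells. The difference in log2 fold change between somite and nasal libraries was 0.38 (SE 0.10), and its adjusted p was 0.10 in edgeR's interaction test.

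Against the share of S phase UMIs, HIST1H103 was lowest in the lowest bin (under 20% S phase) of every library. In nasal HH15 it was 60.8, 84.2, 266, 340 and 637 CPM over the 5 bins of 20%, and in somite HH12 it was 99.9, 204, 687, 742 and 463 CPM. It was higher in each next bin in nasal HH15, nasal HH18 and somite HH15. In nasal HH22, somite HH12 and somite HH20 it was highest in the middle or next bin and lower above 80%. That top bin held 19 cells in nasal HH22 and 32 to 72 in the other libraries. The values from 40% upward were at least 221 CPM in every library when the top bin is left out.

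**Figure D5:**
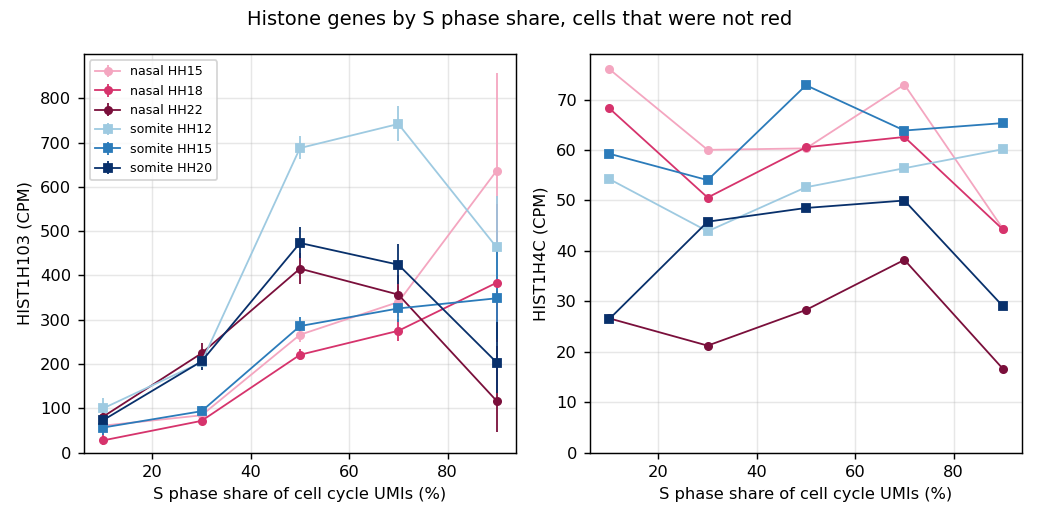
HIST1H103 (left, with 95% Poisson intervals) and HIST1H4C (right, without intervals) in CPM against the share of S phase UMIs among S phase and G2M UMIs (percent, bin centres) in non-red cells; each line is 1 library. HIST1H103 lies between 27.5 and 99.9 CPM in the lowest bin and between 221 and 687 CPM in the middle one, and HIST1H4C shows no common rise.

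Of the 7668 genes tested between S-leaning and G2M-leaning cells, 3.69% were called higher and 5.11% lower. Among linker genes HIST1H110 rose (log2 fold change 0.85, SE 0.23, adjusted p = 0.011 in edgeR, 6 of 6 libraries), and HIST1H101 had -0.07 (adjusted p = 0.87). Among 3 core histones tested, H2A-IX (0.64) and HIST1H4C (0.34) rose and HIST1H46 (0.01) did not pass. HIST1H4C went from 52.6 to 69.2 CPM, a much smaller step than that of HIST1H103.

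Of 7 histone variants 2 fell, the replication-independent H3F3B by 0.31 and H2AFZ by 0.16. Of 7 high mobility group genes 1 fell, HMGB3, by 0.19, and 1 rose, HMGA2, by 0.16. None of 8 histone chaperones passed the test, and 1 of 5 genes of histone mRNA processing fell, CPSF2, by 0.32. The neural progenitor list had 3 of 7 genes lower, led by the eye and forebrain factor PAX6 (-0.90), and the mesenchyme list had 2 of 9 higher. The makeup of the 2 groups therefore differed as well as their leaning. The part of makeup in the HIST1H103 difference was not tested. Leaning compares raw UMI counts of lists of unequal level. In FABP7 cells the G2M list summed to a median of 7041 CPM and the S phase list to 4588 CPM. G2M-leaning cells therefore need not be in G2 or M phase.

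The second tested contrast set cells with at least 3 neuron-list UMIs against FABP7 cells. HIST1H103 fell in the neuron-list cells of every library, and H1F0 did not pass the test. HIST1H103 was 51.6, 26.2 and 238 CPM in neuron-list cells of nasal HH15, HH18 and HH22, and 351, 104 and 198 CPM in those of somite HH12, HH15 and HH20. Each value lay below that of the FABP7 cells of its library given above, at 0.192 to 0.807 of it, although the ranges overlapped between libraries. The log2 fold change was -0.84 (SE 0.18, adjusted p = 0.0090, edgeR with library as a block). The level of FABP7 cells had entered the choice of the gene, so this test is not fully apart from that choice.

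The neuron-list cells were not shown to have left the cell cycle, since 41.9 to 72.0% of them had a CDK1 UMI. In the phase sums of those with CDK1, HIST1H103 was below FABP7 cells in 5 of 6 libraries among G2M-leaning cells and in 3 of 6 among S-leaning cells. With 6 neuron-list UMIs required the log2 fold change was -1.54, and without TUBB3 in the list, an alternative chosen after seeing the data, it was -1.11. With 3 FABP7 UMIs required, also chosen after seeing the data, it was smaller, -0.58, and still called. Without library as a block it was -0.61 and no longer called (adjusted p = 0.58, edgeR). The difference between somite and nasal libraries was 0.55 (adjusted p = 0.19, interaction test in edgeR).

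H1F0 in neuron-list cells was 2.87, 16.1 and 66.2 CPM in nasal HH15, HH18 and HH22, and 2.04, 19.4 and 33.5 CPM in somite HH12, HH15 and HH20, on 1 to 49 UMIs. These values overlapped those of FABP7 cells, and the log2 fold change was 0.19 (SE 0.21, adjusted p = 0.58, edgeR).

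Of 7040 genes tested between neuron-list and FABP7 cells, 5.06% were called higher and 6.09% lower. Of 35 S phase genes 6 fell and none rose, among them the helicases MCM4 (-0.44) and HELLS (-0.40). Of 39 G2M genes 1 rose and 2 fell, with CDCA3 at -0.74. HMGA2 (-0.44) and HMGN4 (-0.38) fell, as did the chaperone SET (-0.27), and the histone variant H3F3C rose (0.31). No other linker or core histone gene passed the test. The mesenchyme list had 6 of 7 genes lower, with COL1A1 at -2.21. The 785 calls became 355 without nasal HH15, 297 without nasal HH18, 308 without nasal HH22 and 1191 without somite HH20.

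The third tested contrast set cells with at least 3 endothelial-list UMIs against PDGFRA cells in 5 libraries. HIST1H103 fell in the endothelial-list cells of 5 of 5. Its level there was 32.7 and 93.8 CPM in nasal HH15 and HH18, and 328, 63.3 and 83.7 CPM in somite HH12, HH15 and HH20, from 1, 5, 97, 9 and 7 UMIs in 10, 16, 71, 45 and 15 cells. All lay below the PDGFRA cells of the same library, at 0.0898 to 0.674 of them, and all but that of somite HH12 lay below every PDGFRA value. The log2 fold change was -1.32 (SE 0.23, adjusted p = 2.78e-05, edgeR with library as a block). PDGFRA cells had the highest mean of the classes ordered above, 333 CPM, and their level had entered the choice of the gene. This test is therefore not fully apart from that choice.

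Somite HH12 held 97 of the 119 endothelial-list UMIs of HIST1H103, and without that library the log2 fold change was -1.88. With at least 6 endothelial-list UMIs only 2 libraries could be used, and it was -0.86 (adjusted p = 0.22, edgeR). H1F0 had too few counts for this test, with 0 to 3 UMIs per library.

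Of 2611 genes tested in this contrast, 16.1% were called higher and 16.5% lower. Histone chaperones mostly fell, 5 of 8, among them SSRP1 (-0.67) of the FACT complex, NAP1L1 (-0.53) and SET (-0.46), while NAP1L4 rose (0.70). HMGN4 fell by 0.73, and the H3.3 variant genes H3F3C and H3F3B rose by 0.65 and 0.30. Of 21 S phase genes 1 rose and 3 fell, and of 31 G2M genes 4 rose and 4 fell. The erythroid-list genes CA2 (5.66) and LMO2 (5.29) rose, both also known from endothelium or its early precursors, and the hemoglobin gene HBZ rose by 0.54.

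The genes whose profiles were most like those of the 2 linker histones were found over 34 sums of a class in a library, among 4996 genes that reached 50 CPM in 1 of them. For H1F0 the 5 highest Pearson correlations were with HBBA (0.97) and SLC4A1 (0.97), followed by STEAP3, HBE1 and SUSD3 (0.95 each). HBBA and HBE1 are among the hemoglobin genes that define red cells, and H1F0 was chosen by its level in red cells. The correlations over 34 sums therefore largely follow from these choices. Without the red cells, over 29 sums, the same genes had 0.70, 0.71, 0.34, 0.40 and 0.45, and the genes were not ranked anew. For HIST1H103 they were FASTK (0.85), SERP1 (0.83), MRPL12 (0.81), NDUFB6 (0.81) and RPS21 (0.79), and without red cells 0.85, 0.84, 0.82, 0.83 and 0.80. None of the HIST1H103 neighbours was a histone gene, but the 50 CPM limit can leave out genes with low counts. HIST1H110, HIST1H101, HIST1H46 and H2A-IX had 298, 619, 791 and 381 UMIs over all kept cells, against 13874 for HIST1H103. The absence of histone genes is therefore no result about HIST1H103. Sums of 1 library share its depth and handling, so these values only describe the profiles.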

How the data were processed

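The deposited files held UMI counts per gene and cell. Per the submitters' processing notes and the study's methods, the authors aligned the reads with Cell Ranger to GRCg6a, with an annotation whose 3′ ends they had extended. Each library held 7702531 to 16725073 UMIs, which limits the precision of low levels such as that of H1F0 outside red cells.

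Following the study's filters, barcodes above 4 times the mean or below 0.2 times the median UMI count, with a mitochondrial share above 0.1 and over 3 median absolute deviations unless their UMI count was above the median, or with under 0.15 genes per UMI unless their gene number was under 0.667 of the library's largest were left out. Scrublet in scanpy 1.11.5 then removed 425 of 16731 cells as doublets, at an assumed 0.008 per 1000 cells. Cells were classed by UMIs alone, without clustering. Red cells had over 20% hemoglobin UMIs, marker classes needed 3 UMIs of their list, and S- or G2M-leaning cells had more UMIs of that phase list, ties left out. Thinning drew 1000 UMIs per cell. Sums of under 10 cells were not used.

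Sums per library and class were tested with edgeR 4.0.16 in R 4.3.3, with TMM factors, filterByExpr, a prior count of 2 and library as a block, at a Benjamini-Hochberg adjusted p under 0.05. Both sums of a pair came from 1 library, and their deviations from the class means correlated at 0.55 to 0.81 (phase), 0.41 to 0.63 (neuron), 0.07 to 0.45 (endothelial), 0.11 to 0.26 (red), 0.74 to 0.88 (CDK1) and 0.26 to 0.68 (FABP7 and PDGFRA). With library as a block, p-values rest on how differences between classes varied from library to library, not on differences in level between libraries. With 1 library per stage, that variation may be technical. It was estimated with information shared across genes, and each SE is the log2 fold change over the root of the test's F statistic. Neither the p-values nor the SEs therefore measure the spread of HIST1H103 alone. Its log2 CPM ratios had SDs between libraries of 0.28 (phase, n = 6), 0.82 (neuron, n = 6) and 1.07 (endothelial, n = 5). On simulated counts with 200 changed genes, the phase fit over 7668 genes recovered 93% of them, the neuron fit over 7040 genes 82% and the endothelial fit over 2611 genes 76%. The red fit over 8105 genes recovered 56.5%, and 41% of those changed by a log2 of 1. The CDK1 fit recovered 97.5% and the fit of FABP7 and PDGFRA cells 81%. The simulated counts held no gene differences between libraries.

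The alternatives were DESeq2 1.42.0, its size factors, no filter, no block, each library left out, doublets kept, hemoglobin left out and other thresholds. Alternatives within FABP7 or PDGFRA cells, with 3 FABP7 UMIs, without TUBB3, with library totals, or without the upper UMI limit, mitochondrial filter and doublet removal were chosen after seeing the data. Both genes and all gene lists were chosen with earlier results of these data known. Named were all linker histones, the 5 genes most alike by correlation of log2(CPM + 10), and up to 3 called genes per list and direction that reached 50 CPM and moved 1 way in every library; H2A-IX, HIST1H2B8, HIST1H46 and PRRX1 were named after their values were seen. RefSeq served only for synonyms and gene order. No columns of other samples were present (0), and sequences of the genes are not printed here.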

Additional observations from a re-analysis of the deposited data

Results flagged for a closer look

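H1F0 in PDGFRA cells was higher with CDK1 than without it in both nasal libraries with at least 1 UMI in each class (median log2 ratio 1.59) and lower in both somite libraries with them (median -0.69). The sums held 1 to 8 H1F0 UMIs each, and the difference between places was not tested.

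H1F0 in cells without a CDK1 UMI was higher in S-leaning than in G2M-leaning cells in 3 of 3 nasal libraries (median log2 ratio 0.18) and lower in 3 of 3 somite libraries (median -0.67). The S-leaning sums held 84 H1F0 UMIs in nasal and 45 in somite libraries, and the G2M-leaning sums 115 and 99. Over the 6 libraries the S-leaning to G2M-leaning ratios ran from 0.202 to 1.16. The difference between places was not tested either.

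The only red cell of somite HH12, which entered no comparison, had 49 H1F0 UMIs among 7693, or 6369 CPM, against 1.26 CPM in the other cells of its library.

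The 155 red barcodes above the upper UMI limit, which also entered no comparison, held 9190 H1F0 UMIs (2747 CPM), and each of the 155 had at least 1. Their median depth was 21860 UMIs, and H1F0 stood at 4.15 UMIs per 1000 hemoglobin UMIs. By library the level was 2375, 3686 and 2500 CPM in nasal HH15, HH18 and HH22 and 4021 and 2257 CPM in somite HH15 and HH20. HIST1H103 was 114 CPM in the same barcodes, on 381 UMIs.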

How the results depend on the processing

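Of 185 alternatives over 15 results, 161 were taken as unchanged. For tested genes this meant the same direction and call, and for numbers of called genes a value within 1.5 times. For the mean log2 ratios, which have no call, it meant the same direction and a shift smaller than their SD between libraries. The cause of the changes below was not tested. Between S-leaning and G2M-leaning cells, 675 genes were called, 329 with DESeq2, 110 with no replicate block, 364 within FABP7 cells and 9 within PDGFRA cells (1018 genes tested, 3 libraries), and 491 to 633 with each library left out. HIST1H103 stayed called under all 15 alternatives (1.60 to 1.77 with each library left out), whereas H1F0, not called, had -0.012 with no replicate block and -0.0079 to 0.17 with each library left out. Between neuron-list and FABP7 cells the 785 calls became 1232 with no filter, 23 with no replicate block, 111 with 3 FABP7 UMIs and 297 to 1191 with each library left out. HIST1H103 there lost its call with no replicate block (-0.61) and kept it with each library left out (-0.97 to -0.58), and H1F0, not called, was -0.043 with 6 neuron-list UMIs. Between endothelial-list and PDGFRA cells the 850 calls became 547 with DESeq2 and 144 with 6 marker UMIs, where HIST1H103 (-0.86) lost its call. It kept it with each library left out (-1.88 to -1.15).

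Red cells against others gave 3354 calls, and 7566 with library totals. With no replicate block the CDK1 contrast fell from 5267 to 1740 calls and that of FABP7 and PDGFRA cells from 3130 to 2033. The mean log2 ratio of HIST1H103 between red and other cells turned from -0.79 to 0.53 outside hemoglobin, while that of H1F0 was 6.68 to 7.62 with each library left out. The ratio of HIST1H103 with and without CDK1 went from -0.70 to -1.13 with 2 CDK1 UMIs and to -0.11 within PDGFRA cells. Depth limits H1F0 outside red cells and every endothelial-list sum, and each stage was 1 library.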
